A study of Mus musculus with 160 samples.

Results

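On day 21 of induction, the blood progenitors made from mouse pluripotent stem cells fell into cells with high and with low levels of the transcription factor Gata2, and the Gata2-low cells differed among themselves in Cd3g, which encodes the gamma chain of CD3. The 34 cells described here are the day-21 induced hematopoietic progenitor cells (iHPCs) with Gata2 below 31 TPM, out of 56 day-21 cells and 160 cells in the whole series. TPM is a level per transcript length, scaled so that every cell has nearly the same sum. Of the 34 cells, 17 had Cd3g at 31 TPM or more and are called Cd3g-high, and 17 had less and are called Cd3g-low. Both sides were therefore selected on measured values, and everything given below is a description of these cells. The other 22 day-21 cells are called Gata2-high.

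All cells came from C57BL/6 stem cells, given in the labels as embryonic or induced pluripotent stem cells. The study describes them as derived from embryonic stem cells (iR9) whose Rosa26 locus carries Runx1 and Hoxa9 under doxycycline control. The series holds 65 induced hemogenic endothelial cells (iHECs) and 21, 18 and 56 iHPCs of days 14, 17 and 21, which are days 3, 6 and 10 of maturation. For maturation, iHECs were kept with doxycycline on OP9-DL1, a stromal line that displays a Notch ligand, in medium holding the cytokines IL3, Flt3 ligand and stem cell factor. Day-21 cells were sorted as Ter119-CD45+c-kit+CD127+, a gate that does not use CD3, whereas day-14 and day-17 cells were sorted as CD45+ and negative for a lineage mixture that included CD3 and FcεRIα. Day and gate cannot be told apart between day 17 and day 21. Each library is 1 sorted cell and no label names its culture or animal, so each side counts as cells of 1 sample, no test was run, and every SD is the spread between cells.

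The CD3 chains (gamma, delta, epsilon and zeta, encoded by Cd3g, Cd3d, Cd3e and Cd247) carry the signal of the T cell receptor. In immature T cells of the thymus they first assemble with the pre-TCR alpha chain (Ptcra) and a receptor beta chain, whose gene is cut and joined by the recombinase of Rag1 and Rag2. Notch signals, the transcription factors Tcf7, Gata3 and Bcl11b, and the E proteins drive this program, while PU.1, encoded by Spi1 (listed in the table as Sfpi1), is known for myeloid genes and for its loss as T cells commit.

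Cd3g lies on chromosome 9 of GRCm38, the assembly also named mm10, from 44969572 to 44980431 on the minus strand. Its neighbour Cd3d, on the plus strand from 44981786 to 44987339, starts 1355 bases away and is read in the opposite direction, and Cd3e lies in the same cluster from 44998740 to 45009627. The RefSeq promoter windows below (GRCm38.p6, 300 bases around the start, 5′ to 3′ on the gene's strand) are shown for the gene that split the cells, for its neighbour, and for Ptcra and Gzma, which had high levels in most Cd3g-high cells. Capitals mark matches, on either strand, to the E box letters CAGNTG, the RUNX letters TGTGGT, the ETS letters AGGAAG and the TCF letters CTTTGA.
Cd3g, chr9:44980382-44980681, minus strand: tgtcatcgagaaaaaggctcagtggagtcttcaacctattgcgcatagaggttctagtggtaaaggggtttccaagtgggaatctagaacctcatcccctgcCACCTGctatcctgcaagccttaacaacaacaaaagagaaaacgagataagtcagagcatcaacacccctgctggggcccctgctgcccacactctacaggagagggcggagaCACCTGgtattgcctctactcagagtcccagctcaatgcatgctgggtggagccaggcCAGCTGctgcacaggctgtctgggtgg
Cd3d, chr9:44981536-44981835, plus strand: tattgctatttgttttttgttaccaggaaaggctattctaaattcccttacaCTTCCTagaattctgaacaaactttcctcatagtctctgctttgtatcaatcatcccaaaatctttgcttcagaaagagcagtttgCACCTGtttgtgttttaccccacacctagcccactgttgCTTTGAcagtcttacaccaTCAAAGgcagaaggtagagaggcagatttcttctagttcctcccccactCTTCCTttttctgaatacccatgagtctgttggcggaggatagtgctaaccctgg
Ptcra, chr17:46763663-46763962, minus strand: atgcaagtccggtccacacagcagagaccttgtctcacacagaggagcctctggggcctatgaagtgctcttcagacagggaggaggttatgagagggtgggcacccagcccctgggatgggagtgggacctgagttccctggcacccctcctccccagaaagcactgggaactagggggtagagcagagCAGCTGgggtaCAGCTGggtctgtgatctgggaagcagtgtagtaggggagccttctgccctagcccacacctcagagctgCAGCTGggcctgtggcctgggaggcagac
Gzma, chr13:113100932-113101231, minus strand: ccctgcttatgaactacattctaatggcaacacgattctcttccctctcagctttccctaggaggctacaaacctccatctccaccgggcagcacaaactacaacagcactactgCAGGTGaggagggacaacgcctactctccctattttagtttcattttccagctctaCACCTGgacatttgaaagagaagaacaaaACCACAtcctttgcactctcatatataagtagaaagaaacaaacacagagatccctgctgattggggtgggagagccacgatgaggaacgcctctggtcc

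The Cd3g and Ptcra windows each held 3 E boxes and none of the other motifs. An E box stood in 51.4% of 32851 promoter windows of the same length, and 3 or more E boxes in 5.16%. The Cd3d window held 1 E box, 2 ETS and 2 TCF matches, and that of Gzma 2 E boxes and 1 RUNX match. Windows of Rag2, Cd3e and Tcf7, not shown, held 1 E box each. Those of Rag1 and Cd160, also not shown, held 3 E boxes with RUNX and ETS matches, except for another Cd160 window with 1 E box. RUNX and ETS letters stood in 16.8% and 35.4% of all windows, and TCF letters in 5257 of them. The letters describe these windows and say nothing about whether a factor was bound.

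Cd3g ran from 58.2 to 2773 TPM in the Cd3g-high cells, with a median of 271 TPM. In the Cd3g-low cells it ran from 0 to 28.4 TPM with a median of 2.65 TPM, and it was listed at 0 in 5 of the 34 cells. No cell lay between 28.4 and 58.2 TPM, so these are the values just outside and just inside the threshold. Gata2 was at most 9.18 TPM among the 34 cells, and the lowest Gata2-high cell had 66.0 TPM. The threshold on Gata2 thus fell in a wide gap, and that on Cd3g in a narrower one within a continuous run of values.

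**Figure D1:**
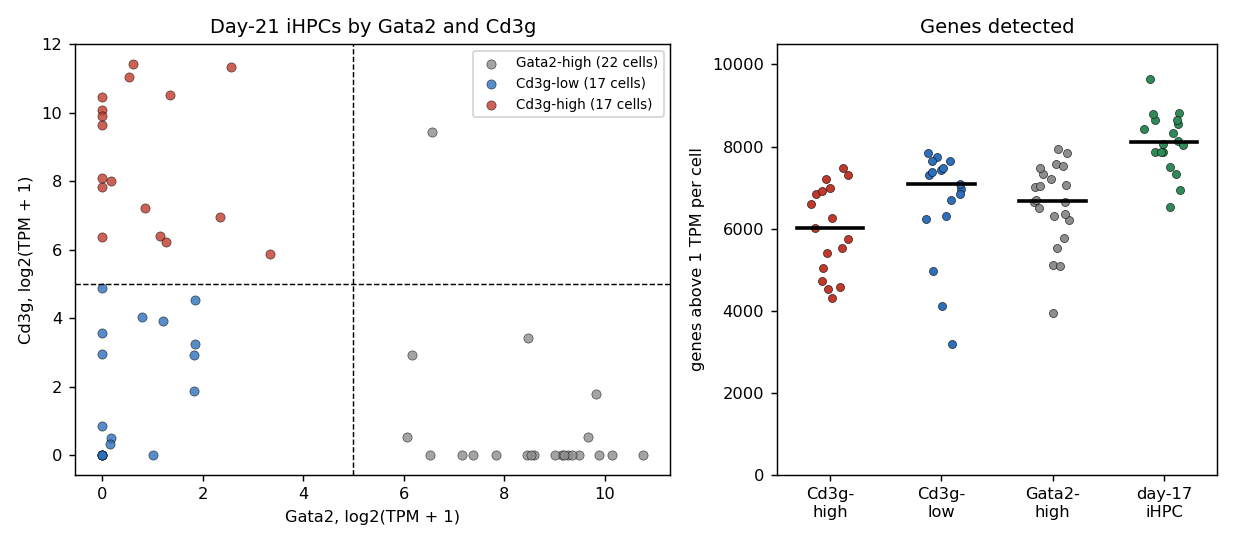
Left, Gata2 against Cd3g in the 56 day-21 cells, both as log2(TPM + 1), with dashed lines at 31 TPM; 1 Gata2-high cell stands above the Cd3g line at 691 TPM. Right, genes above 1 TPM in each cell by group, with the median as a bar; the medians are 6010 genes for Cd3g-high and 7077 for Cd3g-low cells.

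The sides differed in library complexity. Cd3g-high cells had 4313 to 7484 genes above 1 TPM with a median of 6010, and Cd3g-low cells 3188 to 7852 with a median of 7077, so the Cd3g-high median was lower by 1067 genes. Below 6000 genes were 8 of 17 Cd3g-high and 3 of 17 Cd3g-low cells. Across the 34 cells, Spearman's rho of Cd3g with the number of genes detected was -0.35. TPM keeps no read counts, so the depth behind each cell is unknown, and genes listed at 0 are described as such and not as absent. In parentheses beside a difference stands its value after a per-gene linear fit on the number of detected genes was taken off.

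For 7930 genes, those that exceeded 1 TPM in more than 10 cells (Cd3g left out), differences were taken as Cd3g-high minus Cd3g-low on the log2(TPM + 1) scale, which understates the difference of genes with low values. The median difference was -0.24 and 63.7% of the genes were lower in Cd3g-high cells. With the trend removed the median was 0.07. A difference of 2 or more was reached by 13 genes on the higher side (0.164% of those compared) and 151 on the lower side (1.9%), so 7.93% of the genes past this limit were higher. That split depended on the processing: it was 53 higher and 61 lower (46.5% higher) with the trend removed, 70 and 143 (32.9%) with Gata2 below 1 TPM, 42 and 120 (25.9%) with Cd3g split at 1 TPM, 20 and 77 (20.6%) with Cd3g split at 100 TPM, and 2 and 7 (22.2%) with a pseudocount of 10. All 13 higher genes were still higher by 2 or more with the trend removed, against 59 of the 151 lower genes. With Cd3g split at 1 TPM, 7 of the 13 and 37 of the 151 stayed past this limit, and with a pseudocount of 10, 2 and 7 did. Leaving out day-21 cell 40 gave 21 higher genes, and leaving out day-21 cell 53 gave 229 lower genes. For 0 of the 7930 genes did the values of the 2 sides not overlap.

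**Figure D2:**
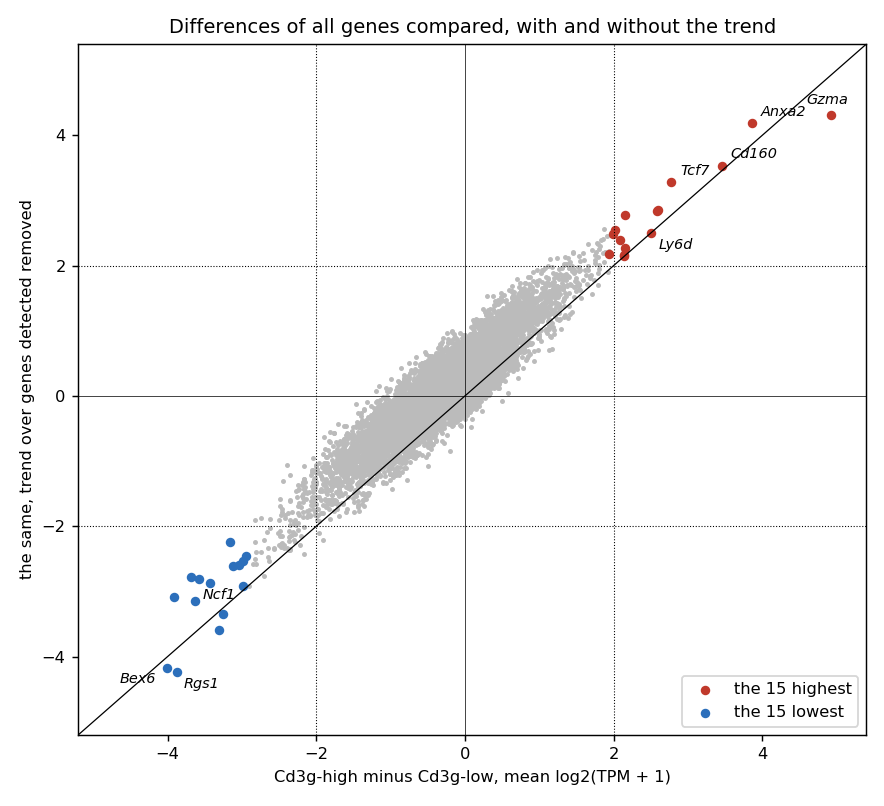
Difference of the mean log2(TPM + 1), Cd3g-high minus Cd3g-low, against the same difference with the trend over genes detected removed, for 7930 genes (gray) with the 15 highest (red) and 15 lowest (blue); dotted lines mark 2 and -2. Apart from Gzma, at 4.93 and 4.31, the red points lie on or above the diagonal, and 11 of the 15 blue points lie above it, closer to 0.

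The genes of the pre-TCR program were higher on the Cd3g-high side as a group. The fixed list of CD3, pre-TCR and recombination genes had 10 members in the table, and the mean over the 9 other than Cd3g was 2.45 ± 0.93 (SD between cells) in Cd3g-high cells, 1.26 ± 0.66 in Cd3g-low cells, 1.14 in day-17 iHPCs and 0.20 in Gata2-high cells. The difference between the sides was 1.19, and 1.26 with the trend removed. Only 3 of the members passed the filter on low values, and 2 of these were higher by 2 or more, Rag2 and Ptcra, against 0.164% of all genes. Dntt, which adds bases at receptor joints, and Themis were above 1 TPM in 0 of the 34 cells. Constant regions of the T cell receptor genes were not analysed here, so no receptor chain is described.

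Among the CD3 chains, Cd3e was above 1 TPM in 8 of 17 Cd3g-high cells (47.1%, exact Clopper-Pearson 95% interval 22.98 to 72.2, covering counting error only) with a highest value of 37.6 TPM. In the Cd3g-low cells it was above 1 TPM in 0 of 17, with an approximate upper limit on the share (3 divided by the number of cells) of 17.6%. Cd3d, the divergent neighbour, was above 1 TPM in 6 of 17 Cd3g-high cells and 1 of 17 Cd3g-low cells, with highest values of 63.6 and 23.7 TPM. Cd247, the zeta chain, was above 1 TPM in 4 and 1 cells, and Trat1, an adaptor that joins the receptor complex, in 3 and 0. At least 1 of Cd3d, Cd3e and Cd247 was detected in 12 of 17 Cd3g-high cells and all 3 in 1 cell, whereas 15 of 17 Cd3g-low cells had none of them. Among Cd3g-high cells, 11 of the 13 with Cd3g at 100 TPM or more had another chain, as did 1 of the 4 below.

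Rag2 ran from 55.9 to 305 TPM in Cd3g-high cells with a median of 117 TPM, and from 0.880 to 185 TPM in Cd3g-low cells with a median of 45.95 TPM. It was thus at 31 TPM or more in 17 of 17 and 11 of 17 cells, and its difference was 2.15 (2.28 with the trend removed). Rag1, its partner in the recombinase, was above 1 TPM in 9 and 5 cells, and its highest value was 37.3 TPM. Ptcra ran from 0 to 857 TPM with a median of 254 in Cd3g-high cells, and from 0 to 1646 with a median of 84.2 in Cd3g-low cells. Its difference was 2.02 (2.55), the single highest cell was a Cd3g-low one, and 5 Cd3g-low cells against 1 Cd3g-high cell were at or below 1 TPM. In day-17 iHPCs the median was 125 TPM for Ptcra and 37.5 TPM for Rag2, with Cd3g at 31 TPM or more in 0 of 18 cells, so these levels stood in cells without Cd3g as well. Of the 6 genes Cd3d, Cd3e, Cd247, Ptcra, Rag1 and Rag2, the median number detected was 4 in Cd3g-high cells and 2 in Cd3g-low cells, 2 in day-17 and 0 in Gata2-high cells.

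**Figure D3:**
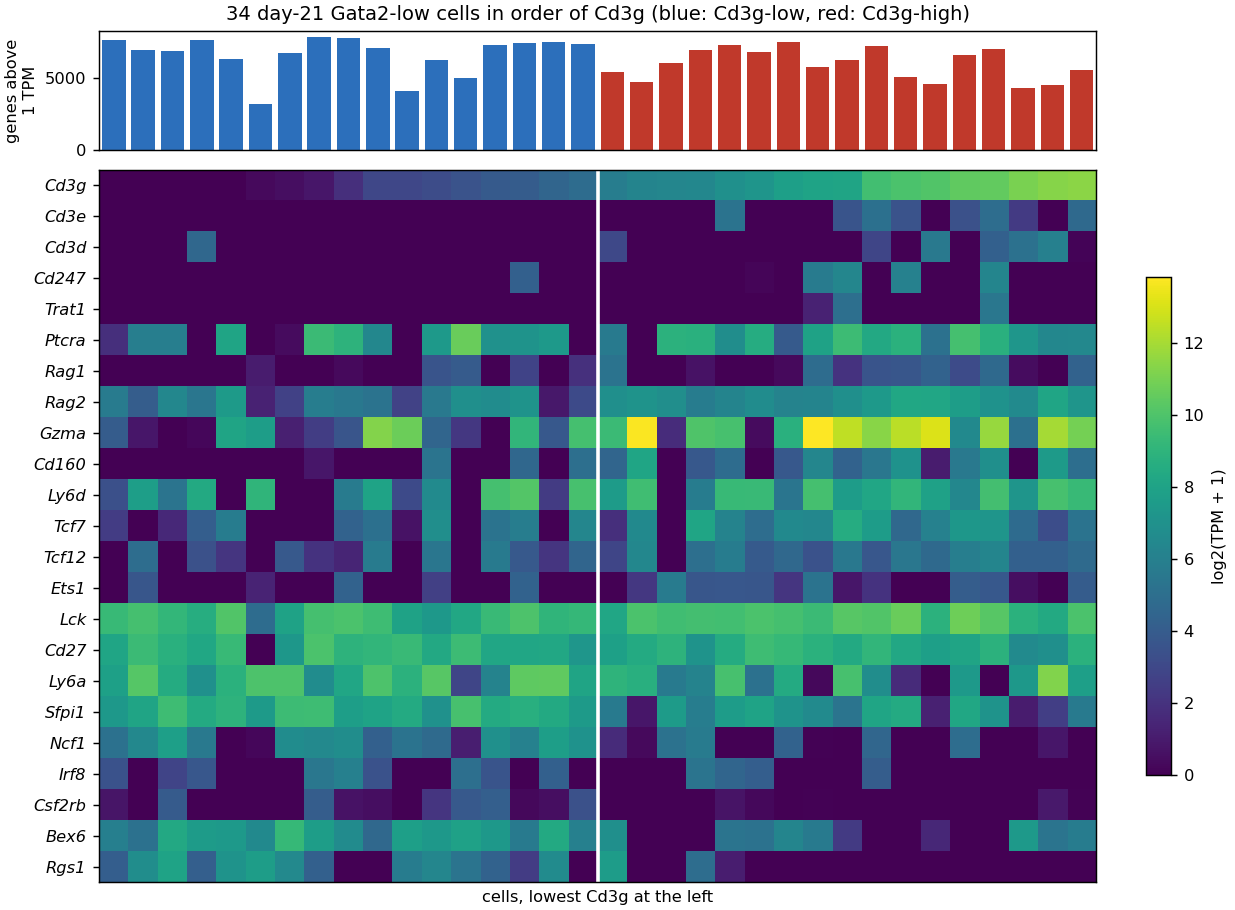
Levels of 23 genes as log2(TPM + 1) in the 34 cells, ordered by Cd3g from left to right, with genes above 1 TPM per cell as bars above (blue Cd3g-low, red Cd3g-high); the white line is the threshold of 31 TPM. Cd3e is dark in all 17 cells left of the line, Gzma is bright in 15 of 17 cells to the right, and Rgs1 is above 1 TPM in 3 of 17 cells to the right.

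Gzma, a granule protease of killer lymphocytes, had the highest difference of all genes compared. It ran from 0.348 to 14617 TPM in Cd3g-high cells with 15 of 17 at 31 TPM or more, and from 0 to 2494 TPM in Cd3g-low cells with a median of 13.04 TPM and 6 of 17 at 31 TPM or more. The means were 9.62 ± 3.99 and 4.69 ± 3.95, a difference of 4.93 (4.31). The sides overlapped, since 2 Cd3g-high cells were below 31 TPM. Gzma was at 31 TPM or more in 1 of 18 day-17 and 2 of 22 Gata2-high cells. Cd160, a surface receptor of natural killer and intraepithelial lymphocytes, was above 1 TPM in 14 of 17 Cd3g-high cells (82.4%, exact interval 56.6 to 96.2) and 3 of 17 Cd3g-low cells, with medians of 29.1 and 0 TPM and a difference of 3.45 (3.53). Several day-17 cells, all with Cd3g below 31 TPM, were also above 1 TPM of Cd160, the highest at 36.6 TPM.

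These 2 genes did not stand for the whole granule program. In the list of cytotoxic and natural killer genes, 5 of 21 passed the filter. Of these, 2 (Gzma and Cd160) were higher by 2 or more (0.164% of all genes were) and 0 were lower by 2 or more (1.9%). Cd160, above 1 TPM in 14 Cd3g-high and 3 Cd3g-low cells, passed the filter only through the side where it was high. The other 3 genes that passed were below 0, and the list's mean differed by 0.24 (0.27). The following 10 of its genes were above 1 TPM in 0 of the 34 cells: Gzmc, Klrk1, Klrb1b, Klrb1c, Klre1, Ncr1, Xcl1, Ifng, Eomes and Tbx21. Perforin (Prf1) was above 1 TPM in 0 Cd3g-high and 1 Cd3g-low cell, while Nkg7, a granule membrane protein, was at 31 TPM or more in 14 cells of each side. Gzmb, the other granzyme detected, was lower on the Cd3g-high side by 1.36, with medians of 19.4 and 56.8 TPM against 15152 TPM in Gata2-high cells. Innate lymphoid genes differed little as a list (0.14, and 0.22 with the trend removed), with Nfil3 higher by 1.36 and Id2 by 0.84. Of that list 8 genes, among them Il1rl1 and Il13, were above 1 TPM in 0 cells.

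Gzma, Cd160, Tcf7 and Ptcra overlapped in part in single cells. Gzma and Cd160 were both at 31 TPM or more in 7 Cd3g-high cells and 1 Cd3g-low cell, with Tcf7 as well in 5 and 1, and with Ptcra as well in 4 and 0. Ptcra thus stood together with Gzma and Cd160 in some of the cells, and no cell on the Cd3g-low side had all of them at that level.

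Among the transcription factors of the T lineage, Tcf7 was the gene that differed by 2 or more, 1 of the 15 list members that passed the filter (0.164% of all genes were higher by as much and 1.9% lower). Tcf7, a Notch target that opens the T lineage program, ran from 0 to 372 TPM with a median of 72.1 in Cd3g-high cells, and from 0 to 113 TPM with a median of 4.46 in Cd3g-low cells. Its difference was 2.77 (3.28). Tcf12, which encodes the E protein HEB, had medians of 25.9 and 3.43 TPM and differed by 1.88 (2.20). Ets1 was above 1 TPM in 11 and 5 cells (difference 1.497), and Gata3 had medians of 29.3 and 8.599 TPM (difference 1.04). On the other hand, Nrarp, a Notch target that damps the pathway, was lower by 1.78 with medians of 28.7 and 102 TPM, and Notch1 differed by 0.07. Bcl11b, which marks commitment, was above 1 TPM in 0 Cd3g-high and 1 Cd3g-low cell. The mean over the 20 genes of the list differed by 0.13 (0.35), with 8 of 15 above and 7 below 0, so the list as a whole did not separate the sides. Day-17 iHPCs, all with Cd3g below 31 TPM, carried these factors as well. Tcf12 was at 6.52 TPM or more in every day-17 cell. Tcf7 and Ets1 were above 1 TPM in most of them, up to 71.3 and 15.2 TPM. The list's mean was 3.19 in day-17 cells, against 2.86 in Cd3g-high and 2.74 in Cd3g-low cells.

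Both sides carried the early lymphoid genes. Lck, the kinase that CD3 signals through, ran from 295 to 1738 TPM in Cd3g-high cells and from 28.9 to 1077 TPM in Cd3g-low cells, with medians of 857 and 588 TPM and a difference of 0.83 (1.22). Cd27, a receptor of the TNF receptor family, had medians of 345 and 323 TPM and differed by 0.18 (0.67). In Gata2-high cells the medians of Lck and Cd27 were 0.694 and 0.0935 TPM. Ly6d, which marks lymphoid progenitors, had medians of 289 and 54.03 TPM and was at 31 TPM or more in 16 and 10 cells, a difference of 2.50 (2.50). The markers Lck and Cd27 were thus at 31 TPM or more in nearly every cell of both sides, whereas Gzma, Cd160 and, with more overlap, Ly6d were higher on the Cd3g-high side.

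**Figure D4:**
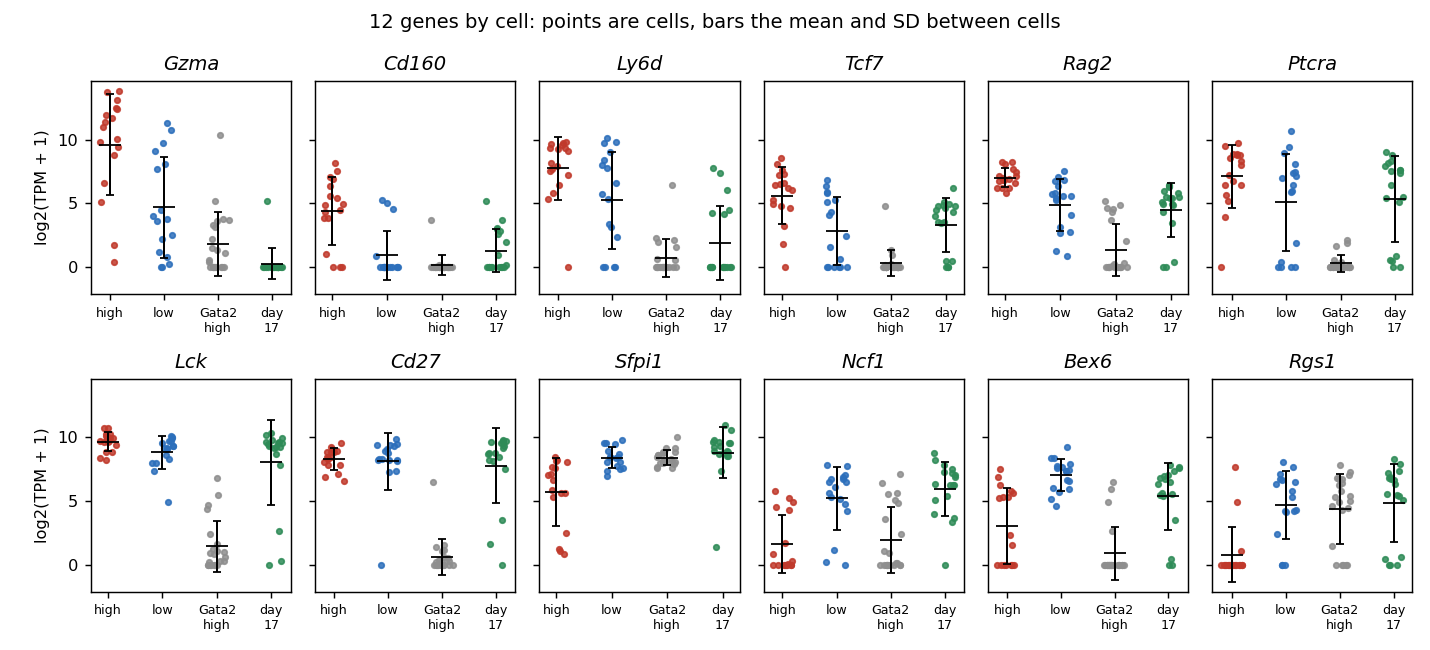
Log2(TPM + 1) of 12 genes in Cd3g-high, Cd3g-low, Gata2-high and day-17 cells; points are cells and bars the mean and SD between cells. Lck and Cd27 sit high in both Gata2-low sides, Gzma mainly in Cd3g-high cells, and Sfpi1 at or above 126 TPM in every Cd3g-low cell. Cd160 has its highest values in Cd3g-high cells but is above 1 TPM in several day-17 cells too.

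In the lymphoid progenitor list, 16 of 18 genes passed the filter, Ly6d was higher by 2 or more (0.164% of all genes were) and Ly6a lower (1.9% were). Ly6a, the stem cell antigen Sca-1, had medians of 164 and 451 TPM and was lower in Cd3g-high cells by 2.29 (2.24 with the trend removed). Cd7 was lower by 1.57, with medians of 181 and 215 TPM. Flt3, the receptor of early multipotent progenitors, had medians of 38.9 and 54.9 TPM, and Ccr9, a thymus homing receptor, 123 and 43.04 TPM. The genes of the sort differed by little: Ptprc (CD45) by -0.33, Kit by -0.52 and Il7r (CD127) by 0.29. Over the 18 genes the list's means were 4.65 ± 0.61 and 4.86 ± 0.64.

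On the lower side stood genes known from myeloid cells, among them Sfpi1 and Ncf1. Sfpi1 (PU.1) ran from 126 to 884 TPM in Cd3g-low cells with a median of 349, and from 0.802 to 346 TPM in Cd3g-high cells with a median of 99.1. It was at 31 TPM or more in 17 of 17 and 13 of 17 cells and was lower in Cd3g-high cells by 2.70 (2.21). The medians in Gata2-high and day-17 cells were 298 and 552 TPM, and 22 of 22 and 17 of 18 of these cells were at 31 TPM or more. The Cd3g-high cells below 31 TPM of Sfpi1 had 0.802 to 4.83 TPM and were the least complex of their side, with 4313 to 4721 genes. All other Cd3g-high cells had 39.5 TPM or more. The least complex Cd3g-low cells, with 3188 and 4104 genes, had 188 and 349 TPM. What the low Sfpi1 values owe to complexity was not tested. Ncf1, a cytosolic subunit of the phagocyte NADPH oxidase, had medians of 0.0772 and 67.4 TPM and was above 1 TPM in 6 Cd3g-high and 15 Cd3g-low cells, a difference of -3.57 (-2.81).

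Related genes, chosen after their values had been seen, did not all follow. Of the other NADPH oxidase genes, Cyba and Rac2 differed by -0.46 and -0.36, Ncf4 by 0.07, and Cybb was above 1 TPM in 0 cells. Of the Src family kinases, Lyn differed by -0.78 (-0.21) and Fyn by -0.97 (-0.33), while Lck was higher. Csf2rb, the shared chain of the IL3 and GM-CSF receptors, was above 1 TPM in 0 Cd3g-high and 6 Cd3g-low cells. Irf8 and Prtn3 were above 1 TPM in 4 against 9 and 3 against 8 cells. Of all genes compared, 63.7% were lower on the Cd3g-high side. Cebpb went the other way, above 1 TPM in 14 against 11 cells, with a difference of 0.38 (0.96). Among the E proteins, Tcf3 (E2A) had medians of 39.8 and 104 TPM and differed by -1.40, or -0.31 with the trend removed, opposite in sign to Tcf12.

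Within the list of 25 neutrophil and monocyte genes, 11 passed the filter, 2 were lower by 2 or more (1.9% of all genes were) and 0 were higher, and the list's mean was 1.94 ± 0.54 against 2.32 ± 0.41. Its difference was -0.38 (-0.20), and of the 11 genes that passed, 3 were above 0 and 8 below. The defining genes Mpo, Elane, Csf3r, Cebpa, Lyz1, Lyz2, S100a8, S100a9 and Cybb were above 1 TPM in 0 of the 34 cells on either side. The list's mean level per gene ran from 1.05 to 2.71 in Cd3g-high cells and from 1.54 to 3.05 in Cd3g-low cells.

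The lowest gene of all was Bex6, with medians of 4.04 and 168 TPM and a difference of -4.01 (-4.18). Rgs1, a regulator of G protein signals that curbs chemokine responses, was above 1 TPM in 3 of 17 Cd3g-high and 14 of 17 Cd3g-low cells, a difference of -3.88 (-4.23). S100a4, a calcium-binding protein, had medians of 41.5 and 258 TPM (-3.26), and Ier3, an immediate early gene, 7.88 and 93.4 TPM (-3.17, or -2.24 with the trend removed). Bcl3, a cofactor of NF-κB, was above 1 TPM in 6 and 13 cells (-3.43), and Ffar2, a receptor for short-chain fatty acids, in 4 and 14 (-3.04). Also among the 15 lowest were 8430408G22Rik, Dcxr, Haao, Susd3, Slc35d3, Hbb-b1 and Bnip1, with differences from -3.91 to -2.94. Hbb-b1, a beta globin, had medians of 8.65 and 150 TPM, and 2 further beta globin rows, looked up after these values were seen, differed by -2.36 (Beta-s, above 1 TPM in 8 and 13 cells) and by -0.12 (Hbb-b2, 6 and 9 cells). The list of erythroid and megakaryocyte genes, in which 0 members passed the filter, had means of 0 and 0.07. Esam, an endothelial and stem cell adhesion molecule, was above 1 TPM in 0 Cd3g-high and 8 Cd3g-low cells, and stood at 31 TPM or more in 13 of 18 day-17 cells. With Cd3g split at 1 TPM its difference turned from -2.31 to 0.08.

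Besides the genes above, the 15 highest held Anxa2, a membrane-binding annexin, which was at 31 TPM or more in 17 of 17 and 11 of 17 cells, with medians of 550 and 101 TPM and a difference of 3.86 (4.18). Its lowest Cd3g-high value was 208 TPM and its spread there was 0.63 against 3.19 on the Cd3g-low side. Cd163l1, a scavenger receptor of gamma delta T cells, was above 1 TPM in 9 and 4 cells (2.59). Ifi47, an interferon-induced GTPase, had medians of 133 and 50.5 TPM (2.58), although the list of 16 interferon response genes differed by -0.28 and 0 of the 12 that passed were higher by 2 or more. Acp5, Rgcc, Fubp3, Dcp1b, 0610009B22Rik and 2610318N02Rik differed by 1.94 to 2.15.

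The genes most like Cd3g over the 34 cells, by Spearman's rho of TPM, were Ict1 (0.73), Anxa2 (0.72), Cd160 (0.65), Rag2 (0.62), Gzma (0.60), Romo1 (0.60), Psmb8 (0.60) and Skp1a (0.56). The points share the split itself and the complexity of their libraries. Within the 17 Cd3g-high cells rho was 0.55 for Ict1 and 0.50 for Rag2, but 0.14 for Gzma and 0.21 for Cd160. The level of Cd3g and that of Gzma were thus both high on this side without following each other closely within it.

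Genes of other cell types were set beside the split for the whole of each list. Of 17 mast cell and basophil genes, 8 passed and 0 differed by 2 or more, with means of 2.18 ± 0.55 (1.39 to 3.15) in Cd3g-high and 2.32 ± 0.55 (1.504 to 3.33) in Cd3g-low cells, against 6.70 in Gata2-high and 0.81 in day-17 cells. Tpsb2, Tpsab1, Fcer1a and Prss34 were above 1 TPM in 0 of the 34 cells. The mast cell protease Mcpt4 had medians of 16.6 TPM in Cd3g-high and 31.4 TPM in Cd3g-low cells, against 15876 TPM in Gata2-high cells and 0 TPM in day-17 cells. The part of RNA from the Gata2-high cells in these low values was not tested. Cpa3, a protease of mast cells and also of early progenitors, was instead at 220 to 2990 TPM in every Cd3g-high cell with a median of 999, against 462 TPM in Cd3g-low and 11.05 TPM in day-17 cells, a difference of 1.34 (1.23). Hdc, which makes histamine, was lower by 1.70.

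Of the remaining lists, B lymphoid genes had 0 members past the filter and means of 0.11 and 0.14, stromal genes, which would mark the OP9-DL1 feeder, means of 0.18 and 0.37 with 7 of 12 members above 1 TPM in 0 cells, and endothelial genes 0.46 and 0.74. S phase genes averaged 6.62 ± 1.31 and 6.68 ± 1.29, and G2 and M phase genes 4.75 ± 1.61 and 4.65 ± 2.12, so the spread between cells of a side was many times the difference of the means. With the trend removed, these 2 lists were higher in Cd3g-high cells by 0.43 and 0.48. T cell receptor signaling genes differed by 0.15 (0.42), glycolysis genes by -0.38 (-0.0013), and commonly used genes by -0.27 (-0.08). In these lists 0 members that passed the filter differed by 2 or more.

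**Figure D5:**
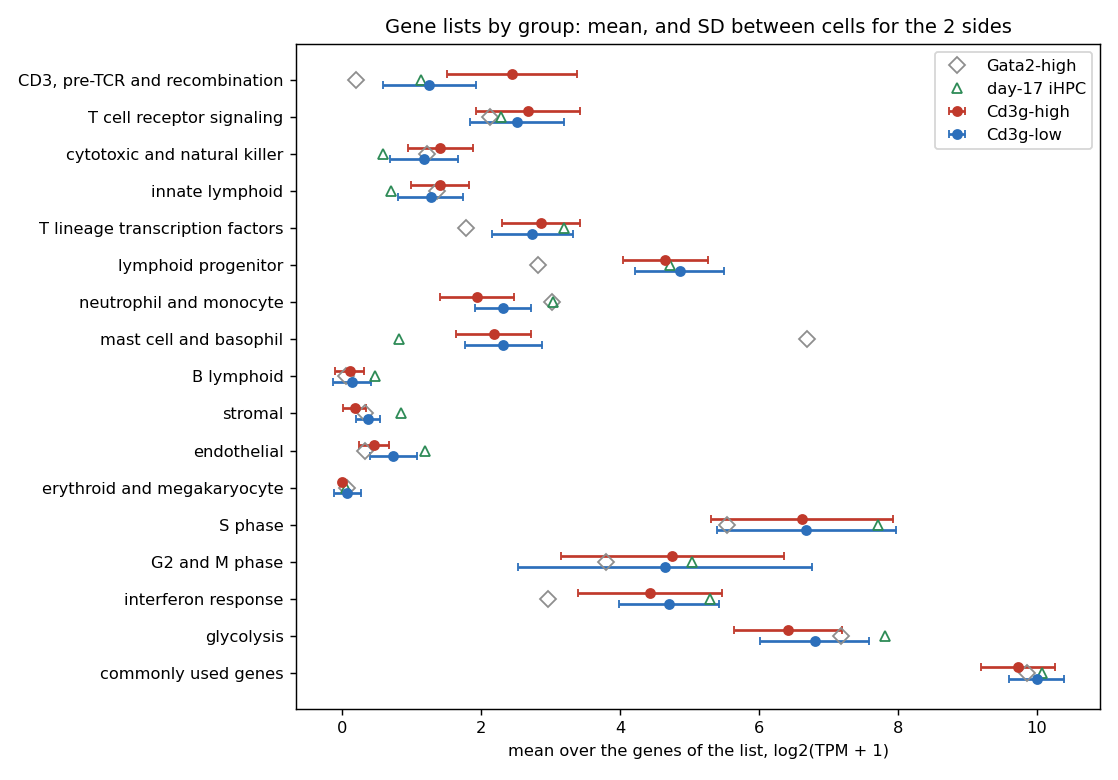
Mean log2(TPM + 1) over the genes of each of the 17 lists, with the SD between cells, in Cd3g-high (red) and Cd3g-low (blue) cells, and the means of Gata2-high (diamonds) and day-17 cells (triangles). The CD3, pre-TCR and recombination list has the widest gap between the sides, 2.45 against 1.26, and the mast cell list sets both apart from the Gata2-high cells at 6.70.

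Outside the 34 cells Cd3g was nearly always low. It reached 31 TPM in 1 of 22 Gata2-high cells, and in 0 of 18 day-17, 0 of 21 day-14 and 0 of 65 iHEC cells. For the counts of 0, the approximate upper limits on the share (3 divided by the number of cells) were 16.7%, 14.3% and 4.62%. The highest day-17 value was 8.65 TPM. With so few cells on a side the same split could not be made in any of these groups. The 1 Gata2-high cell had 691 TPM of Cd3g, 1290 TPM of Gzma, 86 TPM of Ly6d and 111 TPM of Lck together with 7198 TPM of Cpa3 and 6014 TPM of Mcpt4. Ptcra, Rag1, Rag2, Cd3d, Cd3e and Il7r were listed at 0 in it, and 3932 genes were above 1 TPM, the fewest of the Gata2-high cells. Whether it held the RNA of more than 1 cell was not tested.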

How the data were processed

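Per the labels and the methods, the authors used the Discover-sc WTA Kit V2 to amplify cDNA, checked each cell for B2m and Gapdh by qPCR, and used the TruePrep DNA Library Prep Kit V2 for libraries. The sequencer named by the labels is not that of the methods. The submitters' processing notes name HISAT2 2.1.0, SAMtools 0.1.19, StringTie 1.3.4 and the build mm10. The gene annotation is not given in the sources used here. The authors deposited TPM values in 1 table of 23420 rows, and 0 of its sample columns were left unused. TPM keeps no counts, so depth and the counting error of a level are unknown.

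The scale was log2(TPM + 1), a pseudocount of 1, with Python 3.11.15, pandas 2.3.3, NumPy 2.4.6 and SciPy 1.17.1. The 7930 genes that exceeded 1 TPM in more than 10 cells were compared as differences of means. The trend over genes detected is a linear fit per gene on the side and the number of genes above 1 TPM. Shares carry exact Clopper-Pearson 95% intervals, except that for a count of 0 the limit printed is 3 divided by the number of cells. That limit is an approximation and is not of the same kind as the exact intervals. No cell was left out and no doublet caller was run. The TPM of a cell summed to 988686 to 999108, and Pearson's r between any 2 of the 34 cells was at most 0.77. The sign and size of planted differences were checked on simulated data. That check covered only genes with higher levels and had no gap in complexity between the sides. Lists were scored per cell as the mean of their genes, of which 269 of 278 were in the table. Positions are from GENCODE.

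Genes named are Cd3g, Gata2, the 6 marker genes, the CD3, pre-TCR and recombination list, the 15 highest and 15 lowest differences, up to 4 genes per other list with the largest differences, the 8 genes most like Cd3g, and Ptprc, Kit and Il7r. Other genes and the groups of NADPH oxidase subunits, Src family kinases, E and Id proteins, beta-common receptor subunits and granzymes were chosen after their values were seen. Some genes that these rules name are not reported here. The members and the 17 lists were chosen with earlier results of these data known.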

Additional observations from a re-analysis of the deposited data

How the results depend on the processing

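The means of the 17 lists and the difference in genes detected per cell (-480.5 to -1197, -1067 as reported) moved by less than 1 SD between cells under every alternative run, whereas counts of genes past a difference of 2 depended on it. Of the single-gene differences, 1257 recomputed values stayed within that spread, 14 did not, mostly under medians over cells or for genes at 0 in every cell, and 1 reversed. With Cd3g split at 1 TPM, Susd3 went to -0.34. Against 13 higher genes, the counts were 97 and 2 with pseudocounts of 0.1 and 10, 42 and 20 with Cd3g split at 1 and 100 TPM, 70 with Gata2 below 1 TPM, 53 with the trend over genes detected removed, 154 with medians over cells, and 9 to 21 with 1 cell left out. Against 151 lower genes, they were 797 and 7 with the pseudocounts, 77 with Cd3g split at 100 TPM, 61 with the trend removed, 328 with cells in the shared range of genes detected, 1053 with medians, and 119 to 229 with 1 cell left out. Leaving out day-21 cell 40 gave 21 higher genes, and leaving out day-21 cell 53, with 3188 genes the least complex of the 34, gave 229 lower genes. Of the 13 higher genes, 7 stayed higher by 2 or more whichever cell was left out, as did 92 of the 151 lower ones. All 13 and all 151 kept their direction when any 1 cell was left out, with the trend removed, in the shared range, with medians and with either pseudocount, and 146 of the 151 with Cd3g split at 1 TPM. Leaving out 1 of 17 cells cannot reverse a difference of 2 or more on this scale, so that run says nothing about direction. The difference of the gene Esam reversed to 0.0847 with Cd3g split at 1 TPM. The splits of day-17 and Gata2-high cells could not be made, since 0 and 1 cells had Cd3g at 31 TPM or more. No paired analysis was possible because the replicate numbers only name cells and no test was run. With depth unknown, a gene listed at 0 cannot be told from one that was missed.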
